A study of Mus musculus with 18 samples.

Results

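De novo lipogenesis is the synthesis of fatty acids from carbon that does not come from fat, and 10 genes of it were followed in mouse epididymal white adipose tissue (eWAT, labelled gonadal white adipose). They were taken by name as the genes that make and desaturate fatty acids, their cofactor suppliers and their transcription factors. The rule itself uses no measured value, but the pathway was picked with earlier results of these data known. All 10 were found among the 21756 genes of the ParkinAdi experiment and among the 27356 genes of the AAV8 experiment.

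The first experiment compared ParkinAdi mice, which carry a floxed allele and an adiponectin Cre (labelled Parkin f/f Adiponectin, 5 mice, P1 to P5), with Control f/f mice, the floxed mice that served as controls (5 mice, C1 to C5). All were male C57BL/6J mice of about 4 to 6 months on a high-fat diet (HFD) with 45% fat, for a number of weeks not given in the sources used here. The second compared fat pads of HFD-fed wild-type males injected with AAV8-Nqo1, an adeno-associated viral vector for Nqo1 that the methods name AAV8-hAdp-m-Nqo1 (left pads, 4 by the labels), with the opposite pads injected with AAV8-Control (4 pads). These mice were 2 months old, had 4 weeks of HFD before the injections of 50 µL, and were harvested 4 weeks later. The adiponectin promoter acts in adipocytes, whereas eWAT also holds macrophages, mesothelium, vessels and other cells. In such bulk tissue, fewer cells of a type and less RNA per cell cannot be told apart.

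In this pathway citrate leaves the mitochondrion and is cleaved to cytosolic acetyl-CoA, which is carboxylated to malonyl-CoA and condensed, with NADPH as the reductant, to palmitate. Elongases and desaturases then turn palmitate into the longer and monounsaturated acids that enter triglycerides. In adipose tissue the enzymes are under the control of SREBP1, which answers to insulin, and of ChREBP, which answers to glucose metabolites, and their transcripts are known to be lowered by high-fat feeding.

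The files gave each library as regularized log (rlog) values, a variance-shrunken log2 scale, so read depth per library is unknown and differences are somewhat compressed for low genes. The library labelled P2 stood apart. The mean rlog value of the 4 epididymal markers measured (of 10 listed) was 16.19 there and at most 9.02 in the other 9, and each lipogenesis gene is given also without the library labelled P2. The libraries also fell into 2 sets by the sign of the correlation, across genes, between exon length and a library's deviation from the mean: 6 had a positive trend (P1, P2, P5, C1, C2 and C3, rho 0.376 to 0.510) and 4 a negative trend (P3, P4, C4 and C5, rho -0.537 to -0.469).

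For none of the 10 lipogenesis genes did the difference between ParkinAdi and Control f/f eWAT pass the test. With limma and Benjamini-Hochberg adjustment over the 19012 genes tested, 0 of 10 passed an adjusted p of 0.05, where the share of all genes was 0.0% in either direction and the smallest adjusted p of any gene was 0.62. At an unadjusted p of 0.05 there were again 0 of 10, against 5.02% of all genes (1.46% higher and 3.56% lower), and the genotypes did not separate for any of the 10, against 1.06% of all genes. Of the members 6 were higher and 4 lower in the ParkinAdi mice, with a median difference of 0.11, where the median of all genes was 0.03. That median was 0.01 without P1 and 0.19 without C3, and within the negative library set it was -0.04. Without the library labelled P2 the counts were again 0 of 10 at an unadjusted p of 0.05 (4.71% of all genes, 1.46% higher and 3.25% lower) and 0 of 10 without overlap (1.64%), and the median was 0.08. All 10 had passed the filter on low values, and all 10 of the 95% intervals included 0.

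**Figure D1:**
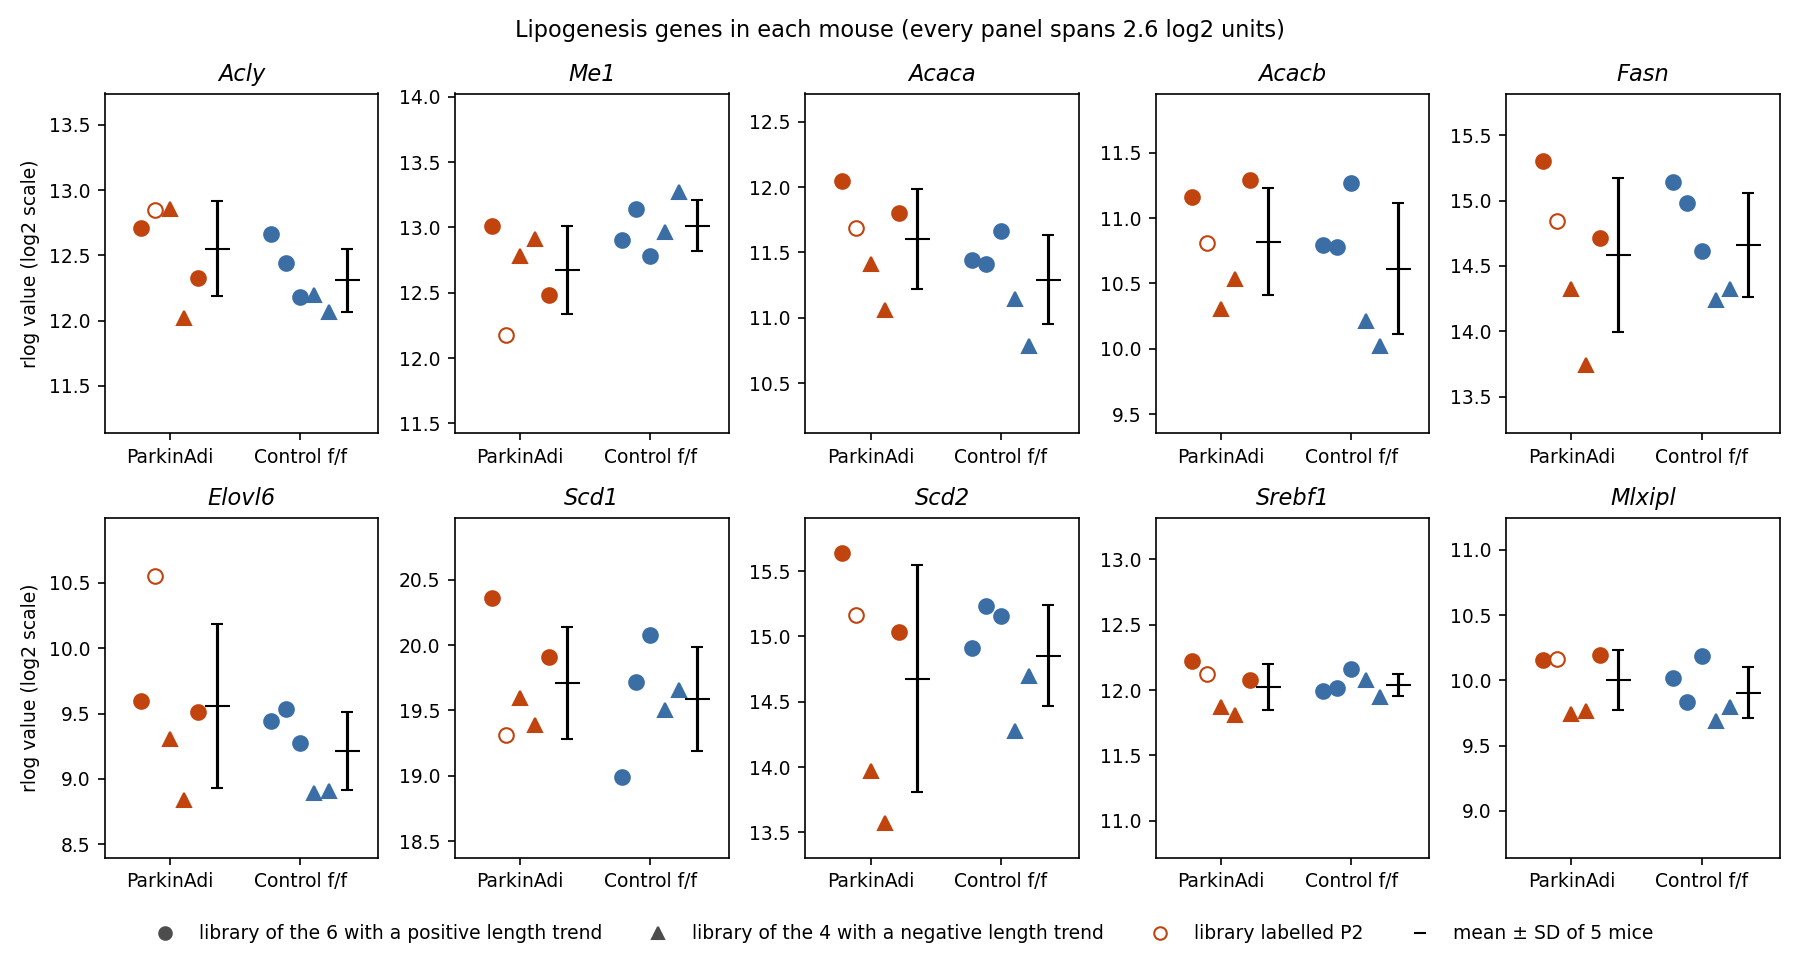
Values of the 10 lipogenesis genes in every mouse (rlog, log2 scale), with ParkinAdi left of Control f/f. Points are mice, the open circle is the library labelled P2, circles and triangles mark the library sets with a positive and a negative length trend, bars are the mean and SD of 5 mice, and the genotypes overlap in each panel.

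The supply of substrate comes first. Acly, ATP citrate lyase, makes the cytosolic acetyl-CoA (chromosome 11, 100476353 to 100528000, minus strand, GRCm38). Its rlog values were 12.71, 12.84, 12.86, 12.02 and 12.33 in ParkinAdi mice P1 to P5, against 12.66, 12.44, 12.18, 12.19 and 12.07 in Control f/f mice C1 to C5. In 3 ParkinAdi mice it was above every control, but mouse P4 had the lowest value of all 10. The means were 12.55 ± 0.37 in ParkinAdi and 12.31 ± 0.24 in Control f/f (SD, n = 5 each), a difference of 0.24 (SE 0.19, 95% interval -0.18 to 0.66, exact permutation p = 0.230) and of 0.17 without the library labelled P2.

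Me1, cytosolic malic enzyme, yields NADPH for the synthase (chromosome 9, 86581371 to 86695953, minus strand). ParkinAdi mice had 13.01, 12.18, 12.78, 12.91 and 12.49, against 12.90, 13.14, 12.78, 12.97 and 13.27 in Control f/f mice. It had the smallest p of the 10 genes. The means were 12.67 ± 0.34 in ParkinAdi and 13.01 ± 0.20 in Control f/f (SD, n = 5 each), and the difference was -0.34 (SE 0.18, 95% interval -0.73 to 0.05, exact permutation p = 0.111). The library labelled P2 held the lowest Me1 value, and the difference was -0.22 without it (SE 0.16).

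The 2 acetyl-CoA carboxylases make malonyl-CoA, the committed step. Acaca encodes the cytosolic enzyme that feeds synthesis (chromosome 11, 84129672 to 84401651, plus strand). Its values were 12.05, 11.69, 11.41, 11.06 and 11.80 in ParkinAdi mice, against 11.45, 11.41, 11.67, 11.14 and 10.78 in Control f/f mice. Again 3 ParkinAdi mice lay above every control, with P4 below 4 of them. Acaca averaged 11.60 ± 0.38 in ParkinAdi and 11.29 ± 0.34 in Control f/f (SD, n = 5 each), with a difference of 0.31 (SE 0.21, 95% interval -0.16 to 0.78, exact permutation p = 0.214) and of 0.29 without the library labelled P2.

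Acacb encodes the carboxylase at the outer mitochondrial membrane, whose malonyl-CoA inhibits fatty acid import for oxidation (chromosome 5, 114146535 to 114250761, plus strand). It stood at 11.16, 10.81, 10.31, 10.53 and 11.29 in ParkinAdi mice and at 10.79, 10.78, 11.27, 10.21 and 10.02 in Control f/f mice. Both genotypes spanned nearly the same range. The means of 10.82 ± 0.41 in ParkinAdi and 10.61 ± 0.50 in Control f/f (SD, n = 5 each) differed by 0.21 (SE 0.26, 95% interval -0.37 to 0.78, exact permutation p = 0.468), and by 0.21 without the library labelled P2. The difference was 0.06 without C5 and 0.37 without C3.

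Fasn, the fatty acid synthase that builds palmitate, is encoded on chromosome 11 (120805846 to 120824547, minus strand). Values were 15.30, 14.84, 14.32, 13.74 and 14.71 in ParkinAdi mice, against 15.14, 14.98, 14.61, 14.24 and 14.32 in Control f/f mice. The ParkinAdi mice held both the highest (P1) and the lowest (P4) value. Fasn averaged 14.58 ± 0.59 in ParkinAdi and 14.66 ± 0.39 in Control f/f (SD, n = 5 each), and the difference of -0.08 had a 95% interval of -0.73 to 0.57 (SE 0.29, exact permutation p = 0.825). Its sign rested on single libraries, since the difference was 0.04 without C1, 0.00349 without C2 and 0.13 without P4. Without the library labelled P2 it was -0.14.

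Elongation and desaturation follow. Elovl6 extends palmitate to stearate (chromosome 3, 129532355 to 129638495, plus strand). ParkinAdi mice had 9.59, 10.55, 9.30, 8.84 and 9.51, against 9.44, 9.54, 9.28, 8.89 and 8.91 in Control f/f mice. The library labelled P2 was more than 1 SD of either genotype above all others. Elovl6 had the largest difference of the 10 genes, 0.35 (SE 0.28, 95% interval -0.27 to 0.97, exact permutation p = 0.317), from 9.56 ± 0.63 in ParkinAdi and 9.21 ± 0.30 in Control f/f (SD, n = 5 each). The difference was 0.10 without the library labelled P2 (SE 0.20), so that library carried most of it.

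Scd1, the main stearoyl-CoA desaturase of adipose tissue, makes oleate from stearate (chromosome 19, 44394455 to 44407879, minus strand). Its values were 20.36, 19.31, 19.59, 19.39 and 19.91 in ParkinAdi mice and 18.99, 19.72, 20.08, 19.51 and 19.65 in Control f/f mice. The lowest value was a control (C1) and the highest a ParkinAdi mouse (P1). Scd1 averaged 19.71 ± 0.43 in ParkinAdi and 19.59 ± 0.40 in Control f/f (SD, n = 5 each), a difference of 0.12 (SE 0.38, 95% interval -0.70 to 0.95, exact permutation p = 0.651). It was 0.22 without the library labelled P2, but -0.04 without P1 and -0.03 without C1.

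Scd2, a second desaturase with its gene beside Scd1 (chromosome 19, 44293674 to 44306864, plus strand), varied most from mouse to mouse. It had 15.64, 15.17, 13.97, 13.57 and 15.03 in ParkinAdi mice, against 14.91, 15.23, 15.15, 14.27 and 14.69 in Control f/f mice. P3 and P4 lay below every control, and P1 above. The means were 14.68 ± 0.87 in ParkinAdi and 14.85 ± 0.39 in Control f/f (SD, n = 5 each), with a difference of -0.18 (SE 0.38, 95% interval -1.02 to 0.67, exact permutation p = 0.706). Without the library labelled P2 it was -0.30, and the sign changed without P4 (0.10) or without P3 (0.000959).

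The transcription factors varied least. Srebf1 encodes SREBP1, which drives lipogenic enzymes when cleaved from the membrane (chromosome 11, 60199089 to 60222581, minus strand). Values were 12.22, 12.13, 11.87, 11.81 and 12.08 in ParkinAdi mice, against 11.99, 12.02, 12.16, 12.08 and 11.94 in Control f/f mice. The 5 controls fell between P3 and P1. Srebf1 averaged 12.02 ± 0.17 in ParkinAdi and 12.04 ± 0.09 in Control f/f (SD, n = 5 each), and the 95% interval of the difference of -0.02 was the narrowest of the 10, -0.27 to 0.24 (SE 0.12, exact permutation p = 0.825), with -0.04 without the library labelled P2. Its sign also changed without C3 (0.01), without P3 (0.02) or without P4 (0.03).

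Mlxipl encodes ChREBP, the glucose-responsive factor (chromosome 5, 135089890 to 135138382, plus strand). ParkinAdi mice had 10.16, 10.16, 9.74, 9.76 and 10.20, against 10.02, 9.83, 10.18, 9.69 and 9.80 in Control f/f mice. In 3 ParkinAdi mice it was close to the highest control, and in the other 2 it was within the lower controls. It averaged 10.003 ± 0.23 in ParkinAdi and 9.91 ± 0.20 in Control f/f (SD, n = 5 each), a difference of 0.10 (SE 0.14, 95% interval -0.22 to 0.41, exact permutation p = 0.444) and of 0.06 without the library labelled P2.

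For each of the 10 genes the limma adjusted p over all genes was 0.99995. The exact permutation tests were two-sided over 252 arrangements of the mice, of which the smallest possible p was 0.00794. As fold changes, the intervals allowed Fasn in ParkinAdi eWAT to be between 0.60 and 1.49 times its Control f/f level, Scd1 between 0.61 and 1.93 times, and Elovl6 between 0.83 and 1.95 times. For Srebf1 they allowed 0.83 to 1.18 times.

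**Figure D2:**
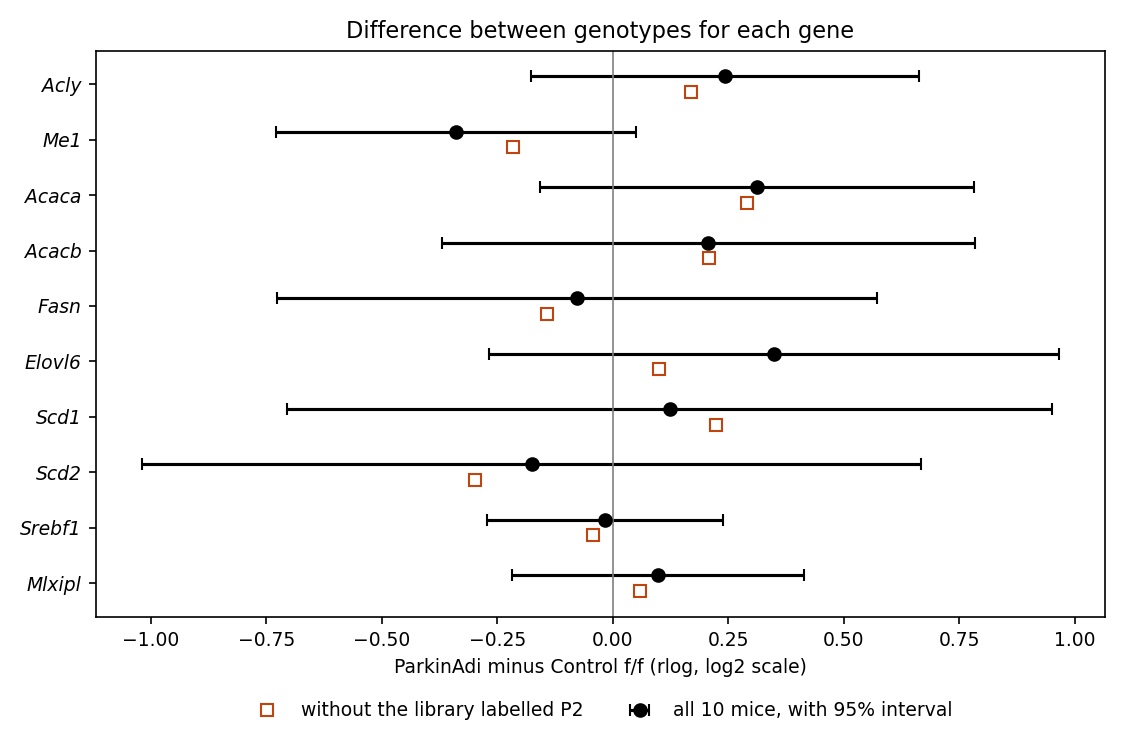
Difference of each lipogenesis gene between genotypes (ParkinAdi minus Control f/f, rlog, log2 scale). Filled points are all 10 mice with the 95% interval, which includes 0 for each gene, and open squares leave out the library labelled P2, where Elovl6 moves to 0.10.

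Some of the genes were separated by library set, whereas none was separated by genotype. Acaca, Acacb, Fasn, Scd2 and Mlxipl were higher in all 6 libraries with a positive length trend than in all 4 with a negative trend, 5 of 10 members, where 22.7% of all genes did so, and no member was separated the other way, as 23.7% of all genes were. The sets were made from these same values over all genes, so the counts are a description. By the definition of the sets, longer genes tend to lie higher in the positive set. The exon lengths of the members ran from 3.848 kb for Me1 to 17.074 kb for Acaca. The shares and medians over all genes were not matched for length, and the part of exon length in the set differences was not tested. Scd2 lay between 14.91 and 15.64 in the positive set and between 13.57 and 14.69 in the negative set, a difference of means of 1.06. Fasn lay between 14.61 and 15.30 in the positive set and between 13.74 and 14.32 in the negative set, a difference of 0.77. The same difference was 0.75 for Acacb, 0.67 for Elovl6, 0.58 for Acaca, 0.34 for Mlxipl, 0.24 for Acly, 0.19 for Scd1, 0.17 for Srebf1 and -0.23 for Me1. The median of the 10 was 0.46, against 0.05 over all genes.

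The mean rlog value of the adipocyte markers was 15.00 to 15.82 in the positive set and 15.74 to 16.02 in the negative set, and these ranges overlapped. The part of adipocyte content in the set differences was not tested. Each set held both genotypes (3 ParkinAdi and 3 Control f/f mice in the positive set, 2 and 2 in the negative set). What the sets are was not tested, and the labels name no batch.

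**Figure D3:**
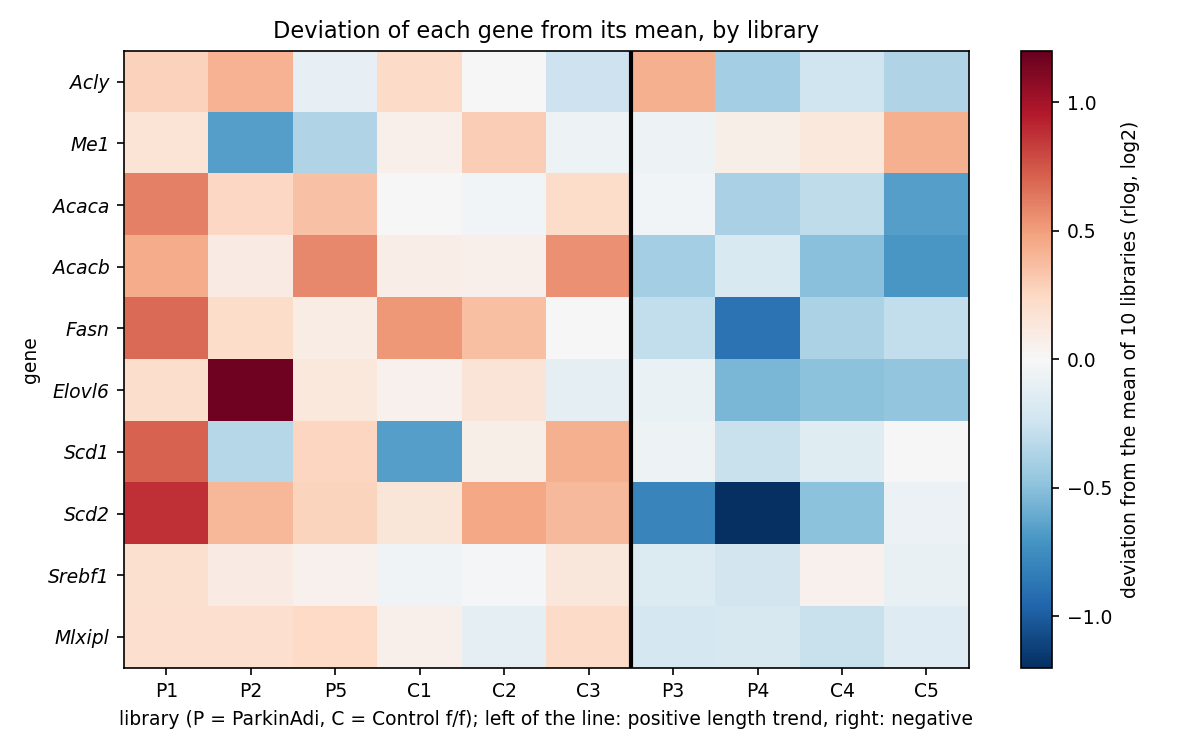
Deviation of each lipogenesis gene (rows) from its mean over the 10 libraries (rlog, log2 scale, red above and blue below), with libraries in columns and the positive length trend left of the line. The 4 libraries on the right are blue for Acacb, Fasn, Scd2 and Mlxipl, and the darkest red cell is Elovl6 in the library labelled P2.

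Within the sets the genotype differences were uneven, and largest for Scd2 in the negative set and Elovl6 in the positive set. In the positive set they were 0.34 for Acaca, 0.14 for Acacb, 0.04 for Fasn, 0.26 for Scd1, 0.18 for Scd2, 0.47 for Elovl6, 0.20 for Acly, 0.08 for Srebf1, 0.16 for Mlxipl and -0.38 for Me1. In the negative set the order was other, with 0.31 for Acly, 0.30 for Acacb, 0.27 for Acaca, 0.17 for Elovl6, 0.01 for Mlxipl, -0.09 for Scd1, -0.17 for Srebf1, -0.25 for Fasn, -0.27 for Me1 and -0.71 for Scd2. The sign was the same in both sets for 6 of 10 genes. With a term for the set in limma, 2 of 10 passed an unadjusted p of 0.05, against 11.8% of all genes (4.43% higher and 7.33% lower). These were Acaca (0.31, SE 0.11, unadjusted p = 0.0156, adjusted p = 0.303) and Me1 (-0.34, SE 0.15, unadjusted p = 0.0447, adjusted p = 0.414). Without the library labelled P2 and with the set term they were Acaca (0.35, unadjusted p = 0.0107, adjusted p = 0.299) and Acacb (0.29, unadjusted p = 0.0265, adjusted p = 0.359). In that fit 913 of all 19012 tested passed the unadjusted threshold upward and 1386 downward. The adjusted p of Acaca, Me1 and Acacb missed the threshold in each of these fits.

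How far a gene varied over all 10 mice differed widely within the pathway. The SD was 0.64 for Scd2, which only 14.002% of genes exceeded, 0.50 for Elovl6, 0.47 for Fasn, 0.45 for Acacb, 0.40 for Scd1, 0.38 for Acaca, 0.32 for Acly, 0.32 for Me1, 0.21 for Mlxipl and 0.13 for Srebf1, which 95.3% of genes exceeded. The transcript of the factor was thus steadier than those of the enzymes. P1 held the highest value of 5 of the 10 genes, and P4 the lowest of 5. After the means of genotype and set were taken out, Scd2 followed the mean of the 10 genes most closely (r = 0.87, n = 10 libraries), then Fasn (0.72), Srebf1 (0.71), Acaca (0.68) and Scd1 (0.68). Me1 (0.39), Acly (0.37), Mlxipl (0.16), Elovl6 (0.09) and Acacb (-0.09) followed it less. Each gene is itself part of that mean, and the points share their libraries.

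Outside the 10, the genes whose values were most like the mean of the lipogenesis genes over the 10 libraries, after the same means were taken out, were Gm9434 (r = 0.98), Xpnpep1, a cytosolic aminopeptidase (0.98), Gm13292 (0.97), Gm38317 (0.96) and Taco1, an activator of mitochondrial COX1 translation (0.96). They were picked as the highest of all genes tested. The mean rlog value of Gm13292 (3.52) was close to the filter of log2 of 10, and that of Gm9434 (4.50) was also low.

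On the scale of the authors' mean normalized count per kb of exon, the order of levels in the ParkinAdi experiment spanned more than 3 powers of 10. Scd1 stood at 182454, rank 9 of 21756 genes. Scd2 (6104, rank 298), Fasn (2567, rank 734) and Me1 (2002, rank 936) came next, then Acly (1101) and Srebf1 (749). Acacb (193), Mlxipl (183) and Acaca (175) lay closer to each other than the spread of each over mice, and Elovl6 was last (120, rank 8257). The length was the union of all annotated exons, 17.074 kb for Acaca, 9.632 kb for Acacb and 5.538 kb for Mlxipl. The order of these genes, here and in the AAV8 experiment, therefore depends on the length used. Undivided, the mean counts here were 2995 for Acaca, 1857 for Acacb and 1014 for Mlxipl. Scd1 was thus by far the most abundant of the 10 transcripts in this tissue. Both carboxylases lay below Srebf1 per kb and undivided (4220 for Srebf1). Their place among the lowest depended on the length, since undivided both lay above Mlxipl and Elovl6 (775).

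In the AAV8 experiment the levels are the authors' means over both vectors, with no values per pad, so no comparison of AAV8-Nqo1 with AAV8-Control pads was made. Nqo1, the gene that the vector carries, had a mean normalized count of 107275 there. Scd1 again led (405084 per kb, rank 8 of 27081 genes with a length), followed by Fasn (13357), Scd2 (12306), Me1 (7983), Acly (4704), Srebf1 (3178), Acacb (687), Acaca (576), Mlxipl (542) and Elovl6 (381). The order was that of the ParkinAdi experiment except that Fasn and Scd2, and Acaca and Mlxipl, changed places. The 2 scales were set separately, so values are not compared across the experiments.

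**Figure D4:**
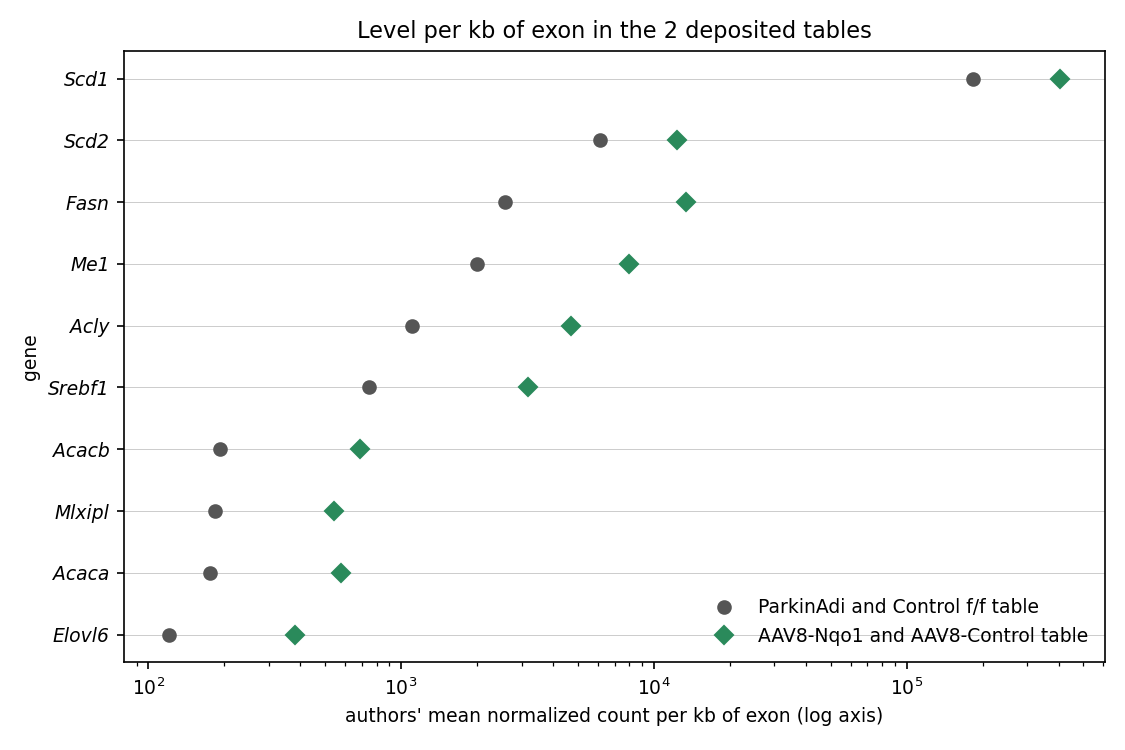
Level of each lipogenesis gene as the authors' mean normalized count per kb of exon (log axis) in the ParkinAdi and Control f/f experiment (circles) and the AAV8 experiment (diamonds). Scd1 is at 182454 and 405084 and Elovl6 lowest at 120 and 381, and since the 2 scales were set separately only the order can be read across them.

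Several of these genes have near-identical copies, and the sources used here do not say how reads that match more than 1 place were counted. Acaca shares 6118 bases at 99.2% identity with the processed pseudogene Gm5182, which was itself at a mean of 10.50 (9.31 to 11.60) and differed by 0.11 between ParkinAdi and Control f/f. Me1 shares 1638 bases at 98.5% with Gm7049 (mean 10.46, difference -0.35), which had nearly the difference of Me1 itself. Scd1 and Scd2 share 1196 bases at 87.6% with each other, and Scd1 shares 1053 bases at 91.4% with Scd3, a further desaturase of the same cluster (mean 13.19, difference -0.11). Me1 also shares 1159 bases at 98.7% with Gm48795 (difference -0.25) and 210 bases at 99.0% with Gm7329 (difference -0.18). Elovl6 shares 805 bases at 97.4% with the processed pseudogene Gm11295, which had no rlog value. Values of Acaca, Me1 and Elovl6 are therefore uncertain to the extent that reads moved between copies. Exons of Elovl6, Srebf1, Mlxipl and Me1 overlap a gene on the opposite strand, and the use of strand in counting is not stated either.

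Promoter windows were searched for known elements of the factors named above. RefSeq windows (GRCm38.p6) of 250 bases before to 50 bases after the start were matched for 8 of the 10 genes, with 12 windows in all, as Srebf1 has 3 starts and Mlxipl and Me1 have 2 each. On either strand TCACCC, the core of a sterol regulatory element to which SREBPs bind, was in 3 of the 12 windows (1 each of Fasn, Srebf1 and Me1), while 16.2% of all 32851 windows hold it. CCAAT, the NF-Y element, was in 7 of the 12 (37.4% of all windows), GGGCGG, an Sp1 element, in 5 of the 12 (35.7%) and CACGTG, the E-box core that ChREBP elements contain, in 1 of the 12, for Mlxipl (7.15%). The windows of Acaca and Elovl6 held none of these 4 motifs. The windows with TCACCC are shown because the synthase, the factor and the NADPH enzyme carry the same core there, with every match to the 4 motifs in capitals on the strand of the gene (either orientation). The windows are chr11:120824498-120824797 for Fasn, chr11:60210422-60210721 for the most downstream Srebf1 start and chr9:86695865-86696164 for Me1, all on the minus strand.
Fasn: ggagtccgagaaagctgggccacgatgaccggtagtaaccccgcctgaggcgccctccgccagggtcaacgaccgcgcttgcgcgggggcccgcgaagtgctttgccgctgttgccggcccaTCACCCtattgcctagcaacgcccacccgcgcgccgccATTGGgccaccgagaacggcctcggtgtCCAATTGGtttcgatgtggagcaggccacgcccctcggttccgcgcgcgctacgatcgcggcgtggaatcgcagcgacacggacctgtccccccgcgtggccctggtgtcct
Srebf1: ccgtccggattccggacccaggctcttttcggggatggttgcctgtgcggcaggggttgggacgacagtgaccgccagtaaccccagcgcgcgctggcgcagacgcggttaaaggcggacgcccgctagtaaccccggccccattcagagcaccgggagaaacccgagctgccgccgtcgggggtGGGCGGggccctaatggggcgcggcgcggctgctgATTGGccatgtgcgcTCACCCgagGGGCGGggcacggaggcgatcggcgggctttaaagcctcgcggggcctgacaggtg
Me1: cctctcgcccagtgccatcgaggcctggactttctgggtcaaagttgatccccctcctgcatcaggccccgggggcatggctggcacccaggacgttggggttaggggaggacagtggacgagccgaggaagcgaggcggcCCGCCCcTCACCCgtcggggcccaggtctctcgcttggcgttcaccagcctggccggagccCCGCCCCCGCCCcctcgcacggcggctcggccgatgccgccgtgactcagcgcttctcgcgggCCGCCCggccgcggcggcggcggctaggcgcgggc
In the Fasn window TCACCC lies upstream of CCAAT matches in both orientations, whereas in the Srebf1 window it stands between an inverted CCAAT and GGGCGG. A match is a description of these letters. The counts per gene do not separate the starts of Srebf1, Mlxipl or Me1. Between the genotypes Fasn differed by -0.08, Srebf1 by -0.02 and Me1 by -0.34, and none of these differences passed the test, as given above.

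The other genes of the pathway were followed by list. Of 13 measured genes of acetyl-CoA and NADPH supply (14 listed), 0 passed the adjusted threshold and 5 were above 0. Their median was -0.07, and 0.05 without the library labelled P2. G6pdx, which makes NADPH in the pentose phosphate path, had the smallest p: it was at 12.86, 12.56, 12.71, 12.42 and 12.57 in ParkinAdi mice, against 12.77, 13.13, 13.07, 12.96 and 13.15 in Control f/f mice. Only P1 reached the range of the controls. The difference was -0.39 (SE 0.13, limma unadjusted p = 0.0115, adjusted p = 0.698) and -0.37 without the library labelled P2. Pgd, the next NADPH enzyme of that path (-0.31, SE 0.14), and Slc25a1, the mitochondrial citrate carrier (-0.34, SE 0.25), lay on the same side as Me1 (-0.34). Acly, which uses the exported citrate, lay above 0 (0.24). Leaving out the library labelled P2 gave -0.24 for Pgd, -0.19 for Slc25a1, -0.22 for Me1 and 0.17 for Acly.

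Of 10 measured elongases and desaturases outside the 10 genes (12 listed), 0 passed and 3 were above 0, with a median of -0.12. Elovl1, an elongase of very long saturated acids, differed by -0.23 (SE 0.11). Fads1 and Fads2, which desaturate polyunsaturated acids, differed by 0.45 (SE 0.33) and 0.56 (SE 0.57). Both were highest in the library labelled P2, as was Elovl6, and without it Fads1 was at 0.19 and Fads2 at 0.03.

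Of 16 genes that control SREBP1, ChREBP or the carboxylases, 0 passed and 9 were above 0, with a median of 0.03. Insig1, which holds SREBPs in the endoplasmic reticulum and is itself an SREBP target, was at 11.79, 11.32, 11.48, 11.34 and 11.54 in ParkinAdi mice, against 12.02, 12.42, 11.53, 11.80 and 12.38 in Control f/f mice. Only P1 and P5 reached the lowest control. Its difference of -0.54 (SE 0.18, limma unadjusted p = 0.0144, adjusted p = 0.710) was -0.49 without the library labelled P2, while Srebf1 differed by -0.02. Mid1ip1, which helps acetyl-CoA carboxylase to polymerize, differed by 0.28 (SE 0.21), and by 0.08 without the library labelled P2.

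Of 12 genes of triglyceride assembly, 0 passed and 5 were above 0, with a median of -0.08, and of 0.07 without the library labelled P2. Mogat2, a monoacylglycerol acyltransferase, differed by -0.47 (SE 0.18, limma adjusted p = 0.820). Gpd1, which makes glycerol 3-phosphate, differed by -0.42 (SE 0.22), and Dgat2, which adds the last acyl chain, by -0.25 (SE 0.20). Leaving out the library labelled P2 gave -0.41 for Mogat2, -0.30 for Gpd1 and -0.14 for Dgat2. Mogat1, a further monoacylglycerol acyltransferase, lay on the other side, at 0.49 (SE 0.45) and at 0.76 without the library labelled P2.

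Markers of macrophages and mesothelium lay to 1 side of 0 by genotype, although 0 of them passed the adjusted threshold. All 12 macrophage markers were lower in ParkinAdi eWAT, 6 of them at an unadjusted p of 0.05 (3.56% of all genes were lower at that p), with a median of -0.49 and -0.39 without the library labelled P2. Their summed level, on the linear scale of the rlog values, was 23633 to 50010 in ParkinAdi mice, against 34670 to 58070 in Control f/f mice. All 10 mesothelial markers were higher, 8 of them at that p (1.46% of all genes were higher at it), with a median of 1.03 and 0.91 without the library labelled P2, and summed levels of 3201 to 9220 in ParkinAdi mice, against 1289 to 4411 in Control f/f mice. Of the markers of adipocytes, the cells in which most lipogenesis of this tissue runs, 7 of 13 were above 0. Their median was 0.06, and 0.20 without the library labelled P2. Their summed level was 853547 to 2172609 in ParkinAdi mice, against 968580 to 2032903 in Control f/f mice. Leptin (Lep), an adipocyte hormone, was the adipocyte marker with the smallest p, at -0.86 (SE 0.24, limma adjusted p = 0.644). Cfd (0.89, SE 0.52), Adrb3 (0.60, SE 0.33) and Retn (0.54, SE 0.55) of the same list lay on the other side. No macrophage, mesothelial or adipocyte marker was near 0, the lowest mean rlog value being 6.52. The part of these markers in the values of the lipogenesis genes was not tested. With every library scaled to the same mean of the adipocyte markers, the median of all genes moved to -0.06, and Acaca differed by 0.22, Elovl6 by 0.26, Fasn by -0.17 and Me1 by -0.43.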

How the data were processed

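RNA was isolated by the authors from frozen eWAT, samples with a RIN above 7.0 were kept, reads were checked with FastQC, and alignment and counting used Rsubread 2.4.2 on GRCm38 (annotation 97). The use of strand in counting and the treatment of reads with several matches are not stated in the labels or methods. Counts were turned into rlog values with DESeq2 1.30.0 by the authors, who deposited them on the log2 scale for 21756 genes of each ParkinAdi or Control f/f library. A second kind of table, 1 for each experiment, holds the authors' comparison (fold changes, standard errors, test statistics and p-values), which was not used. Its column of mean normalized counts, a signal that the authors made by dividing counts by size factors and averaging over both groups, gave the levels. Depth per sample is unknown, so no counting interval was given.

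The mice are named in the order of the deposited columns, whose names give the genotype but not which sample. The legend of the RNA-seq plot gives 4 mice per genotype, while 5 were deposited and all were used. The labels list separate samples, and p-values measure the spread between these. There were 0 columns of per-library values without a group.

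Genes with a mean rlog value of at least log2 of 10 (19012) entered limma 3.58.1 under R 4.3.3 (lmFit, then eBayes with an intensity trend, genotype alone), two-sided, with Benjamini-Hochberg adjustment at 0.05. The fit was tested on simulated data with independent noise and no library sets or outlying library. That check does not show which differences could be found in these libraries. Single genes were compared also with an exact permutation test (Python 3.11.15, scipy 1.17.1). Tables and plots were made with pandas 2.3.3 and matplotlib 3.10.9. Coordinates and exon lengths were from GENCODE M21 on GRCm38, near-identical transcripts were searched with blastn 2.17.0 (at least 85% identity over 200 bases), and promoter windows were from RefSeq GRCm38.p6. The members and the gene lists were chosen with earlier results of these data known, so no test over a list was made. Named were all 10 members, Nqo1, at most 4 genes with the smallest p from each other list, and the 5 genes most like the mean of the members. Similar copies of members were named by sequence. The level of the floxed gene is not reported here. Alternatives changed the filter, scaling, moderation, library weights, the library set and the mice used.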

Additional observations from a re-analysis of the deposited data

How the results depend on the processing

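No paired analysis was possible because the columns of the ParkinAdi experiment carry no replicate number of the labels, and the AAV8 experiment has no values per pad. The ParkinAdi and Control f/f samples are from separate mice, and the labels and methods name no pairs between these genotypes. Only the opposite pads of the AAV8 experiment share a mouse by design. Under 23 alternatives, 21 of them with a test, 0 of the 10 lipogenesis genes passed the adjusted threshold, and the median difference of the 10 was -0.04 to 0.19 (0.01 to 0.19 with a mouse left out, 0.02 scaled to the adipocyte markers, -0.04 within the set with a negative length trend). At a limma unadjusted p of 0.05 the count of 0 became 1 with quantile normalization (all 19012 genes: 185 higher, 804 lower). It was 3 with library weights (1452 higher and 1823 lower of all genes) and 2 with a term for the library set (11.8% of all genes). With that term and without the library labelled P2 it was 2 (913 higher and 1386 lower of all genes). Leaving out each mouse in turn gave 0 to 2. It was 1 without P1 (356 higher and 704 lower of all genes) and 2 without P4 (227 higher and 533 lower). Over all genes 0 were called, against 543 with library weights (105 higher, 438 lower, where C2 alone had a weight of 12.4 and the others 0.302 to 2.54) and 0 to 11 with a mouse left out, the 11 being without C3. The cause was not tested.

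Acaca, Acacb, Elovl6, Acly, Mlxipl and Me1 kept their sign under each alternative, and the other 4 did not. Scd1 was at -0.14 and Srebf1 at 0.0056 with quantile normalization, and Srebf1 at 0.10 and Scd2 at 0.023 with library weights. Within the set with a positive length trend Fasn was at 0.040, Scd2 at 0.18 and Srebf1 at 0.084, and within the set with a negative trend Scd1 was at -0.089. With a mouse left out the range was -0.26 to 0.13 for Fasn, -0.038 to 0.25 for Scd1, -0.42 to 0.10 for Scd2 and -0.068 to 0.035 for Srebf1. It was 0.19 to 0.45 for Acaca, 0.06 to 0.37 for Acacb, 0.10 to 0.53 for Elovl6, 0.17 to 0.38 for Acly, 0.04 to 0.17 for Mlxipl and -0.42 to -0.22 for Me1.

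With 5 mice per genotype, the widest interval of a member was that of Scd2, and the rlog scale keeps no depth.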

Other observations

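Cholesterol synthesis, the sister pathway under SREBP control, leaned lower in ParkinAdi eWAT. Of its 18 genes 4 were above 0, 0 passed the adjusted threshold in limma and 3 had an unadjusted p under 0.05, all lower (3.56% of all genes were lower at that p), with a median of -0.18 both with and without the library labelled P2. Hmgcs1, which makes HMG-CoA, was at 12.23, 11.61, 12.10, 12.05 and 12.02 in ParkinAdi mice, against 12.76, 12.96, 12.24, 12.43 and 12.79 in Control f/f mice. The genotypes did not overlap for it, as for 1.06% of all genes, and the difference was -0.63 (SE 0.17, limma unadjusted p = 0.00335, adjusted p = 0.620). Dhcr7, a reductase late in the path (-0.68, SE 0.21), and Lss, which closes the sterol ring (-0.42, SE 0.22), lay on the same side.

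Among the macrophage markers Cd68 was at 10.07 to 10.60 in ParkinAdi mice, against 10.73 to 11.90 in Control f/f mice, with a difference of -1.17 (SE 0.21, limma adjusted p = 0.620). Gpnmb, a marker of lipid-laden macrophages, differed by -1.77 (SE 0.39) and Adgre1, a surface receptor of mature macrophages, by -0.89 (SE 0.23). Krt7, a mesothelial keratin, differed by 1.31 (SE 0.41).

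The median difference was -0.13 over 8 endothelial markers, -0.06 over 8 markers of fibroblasts and progenitors, 0.03 over 8 lymphocyte markers, 0.04 over 6 skeletal muscle markers and -0.12 over 4 brown fat markers. It was 1.21 over 4 epididymal markers and -0.801 without the library labelled P2. Krt14, the single mammary and skin gland marker measured, differed by 1.67, and by 1.15 without the library labelled P2. Its mean rlog value of 3.60 was close to the filter of log2 of 10. Krt14 was at 2.58 to 3.07 in Control f/f mice and at 2.57 to 6.50 in ParkinAdi mice, highest in the library labelled P2. The lowest mean rlog value of a lymphocyte marker (3.34) and of a skeletal muscle marker (3.35) was also close to that filter. In none of these lists did a gene pass the adjusted threshold. A check of the 10 lipogenesis genes in each genotype (20 groups of 5 values) for a mouse set far apart by Dixon's limit of 0.71 found 0.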
